A study of Mus musculus with 4 samples.

Results

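The genes examined here were 10 smooth muscle contractile genes, *Acta2*, *Actg2*, *Myh11*, *Tagln*, *Cnn1*, *Des*, *Lmod1*, *Synpo2*, *Smtn* and *Mylk*, taken by gene symbol from the 22289 genes named on a whole mouse genome array. They were read by 14 probes and 32 spots on each array. *Synpo2* had 3 probes, *Smtn* and *Mylk* had 2 each, and the other 7 genes had 1.

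In smooth muscle, calcium entry activates myosin light chain kinase, which phosphorylates the light chains of smooth muscle myosin and lets the myosin pull on actin filaments. Thin filament proteins such as calponin and transgelin bind the actin, and desmin filaments tie the contractile units to dense bodies and to the membrane. In the colon these genes are most highly expressed in the circular and longitudinal layers of the muscularis propria, in the muscularis mucosae and in the walls of vessels.

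The study profiled colon RNA on 4 one-color (Cy3) arrays, 1 for each combination of genotype and treatment, to compare *Pla2g3*+/+ (WT) with *Pla2g3*-/- (KO) colon in normal tissue and after azoxymethane (AOM), which gives rise to tumors of the colon. *Pla2g3* encodes the secreted phospholipase A2 of group III. Both WT groups were *Pla2g3*+/+ and both KO groups *Pla2g3*-/-, and all were male mice of strain B6.129 (n3), 42 weeks old, with littermates as WT. The vehicle groups received saline, and the AOM groups received AOM in weekly injections of 10 mg/kg over 6 weeks and were killed 28 weeks after the last one. Each array was hybridized with a mixture of RNA from 3 to 5 mice. The tissue of both AOM groups is labeled as colorectal cancer, whereas the study's description of the profiling names the whole descending colon. How much tumor, mucosa or muscle wall a pool contained is not given in the sources used here. Each group had a single array and hence no replicates, so no p-value was computed, and a ratio was called higher or lower when it passed 2-fold, a threshold of size.

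Signals are given as multiples of the 75th percentile of the same array, which was an intensity of 646 (WT) and 649.8 (labeled KO) with vehicle and 1309 and 1169 after AOM. The share of spots well above background was 64.8% to 69.4% per array, and no spot was saturated. On every array the member genes *Acta2* and *Des* were spotted 10 times each, and the SD of these spots was 0.03 to 0.08 on the log2 scale, which covers spot-to-spot error within an array and not the spread between mice. The probe signal of the targeted gene went against its label. The brightest of 3 *Pla2g3* probes (chromosome 11 of mm9, 3394109 to 3394168) had an intensity of 343 in WT and 426 in the pool labeled KO with vehicle, and 304 and 1632 after AOM. Whether the probes lie in the deleted part of the gene is not given in the sources used here, so the genotype is called labeled KO throughout and every direction below rests on that label. The paper itself reports no staining for the encoded protein in *Pla2g3*-/- colon and fewer tumors in *Pla2g3*-/- mice after AOM. Those are measures of protein and tumors, whereas the arrays give RNA of pools. For *Pla2g3* RNA, the paper also ran quantitative RT-PCR on colons of both genotypes with and without AOM. It reports that *Pla2g3* expression fell in this cancer model.

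Probe sequences of *Des*, *Myh11*, *Smtn* and *Synpo2* are shown first. For *Smtn* and *Synpo2* a dimmer probe is printed, and the ratios given for these genes come from their brightest probes, which are not printed. The probe of *Des* gave the largest ratio among the members, the probe of *Myh11* was past 2-fold in opposite directions in the genotypes, and *Smtn* and *Synpo2* had probes that differed in size. The probes are given as on the array, 5′ to 3′, with positions on mm9. The *Des* probe (chr1:75363404-75363629, plus strand) covers 60 bases spread over 226 bases of the genome and so crosses at least 1 intron. The probes of *Myh11* (chr16:14202190-14202249), *Smtn* (chr11:3420834-3420893, the dimmer of its probes) and *Synpo2* (chr3:122815498-122815557, the dimmest of its probes) lie on the minus strand and each cover 60 bases without a gap.
Des: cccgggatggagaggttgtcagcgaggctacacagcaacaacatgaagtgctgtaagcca
Myh11: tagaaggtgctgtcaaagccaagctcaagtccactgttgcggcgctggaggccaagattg
Smtn: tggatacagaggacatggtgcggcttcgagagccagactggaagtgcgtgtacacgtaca
Synpo2: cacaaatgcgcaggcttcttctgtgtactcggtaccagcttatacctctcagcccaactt

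Many smooth muscle genes carry the CArG box, the element bound by serum response factor (SRF) with its coactivator myocardin. RefSeq windows of 300 bases around the gene start (GRCm38.p6) were given for 7 of the 10 members, and *Actg2*, *Myh11* and *Tagln* had none. An exact CArG box, searched on both strands, was in 0 of these 7 windows and in 1.63% of 32851 windows of all genes. With at most 1 of its 6 central A or T positions changed, the box was in the window of *Acta2* and in 0 of the other 6, against 9.98% of all windows. The window of *Acta2* held 2 such matches, which begin 84 and 34 bases before the gene start and are in capitals in the stretch below (GRCm38.p6, chr19:34255374-34255467, minus strand). A match is a description of the letters in this window and not of binding.
Acta2: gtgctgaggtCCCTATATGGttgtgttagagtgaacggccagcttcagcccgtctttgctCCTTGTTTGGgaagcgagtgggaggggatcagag

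With vehicle, all 10 contractile genes were well above background and had nearly the same signal in both genotypes. Of the 10 genes, 0 passed 2-fold between labeled KO and WT, where 3.24% of 16337 genes passed it in either direction. The log2 ratio ran from -0.14 for *Des* to 0.14 for *Mylk*, and 6 of the 10 were above 0. Their median was 0.04, and that of all genes was -0.02. After AOM, all 10 genes were higher in labeled KO than in WT, where 15.1% of 17131 genes were higher by over 2-fold. All 10 also passed 4-fold, which 5.66% of all genes did. The median log2 ratio of the members was 4.15, against 0.03 for all genes, and it ran from 3.02 for *Acta2* to 6.68 for *Des*. In bulk tissue fewer smooth muscle cells and less of these transcripts per cell cannot be told apart.

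**Figure D1:**
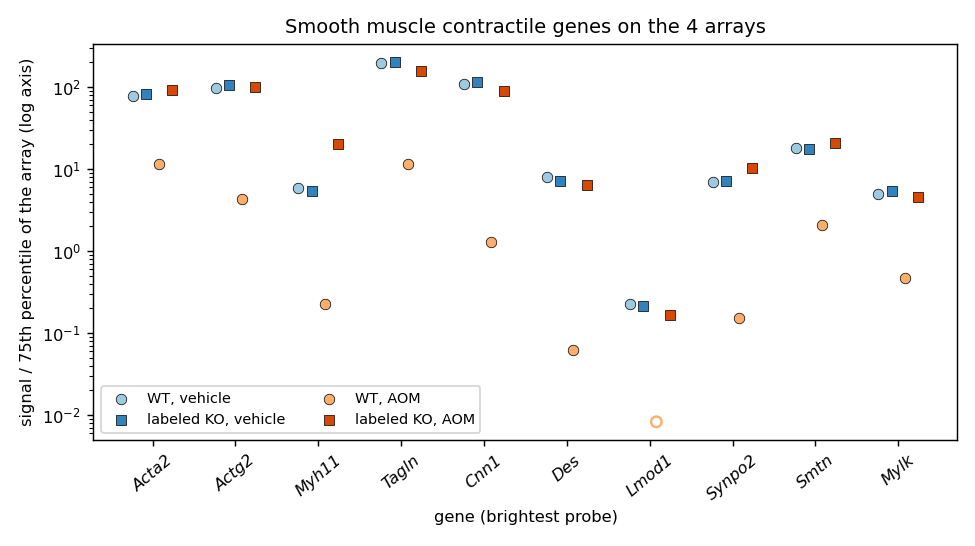
Signal of the brightest probe of each gene on the 4 arrays, in multiples of the 75th percentile of the array (log axis), 1 point per array. Circles are WT and squares labeled KO, blue is vehicle and orange AOM, and the open circle is not well above background. The WT array after AOM is the lowest of the 4 for each of the 10 genes, and levels are to be compared within a gene only.

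The actins form the thin filament. They are near-identical proteins, and whether the probes also bind transcripts of other actins was not tested. The *Acta2* and *Actg2* probes shared at most 6 bases in a row, which compares probes and not whole transcripts. *Acta2*, the smooth muscle actin that is also abundant in vessels and myofibroblasts, was at 77.4 in WT and 82.6 in labeled KO with vehicle, and at 11.5 in WT and 92.9 in labeled KO after AOM. Its ratio of labeled KO to WT after AOM was 8.10-fold, the smallest among the members, and it fell 6.75-fold with AOM in WT. *Actg2*, the enteric smooth muscle actin, was at 97.0 and 104 with vehicle and at 4.31 and 100 after AOM in WT and labeled KO. The WT array after AOM thus stood apart from the other 3, which lay close together, and the ratio after AOM was 23.2-fold.

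*Myh11*, the heavy chain of smooth muscle myosin and the motor of contraction, was at 5.92 in WT and 5.45 in labeled KO with vehicle. After AOM it was at 0.229 in WT and 20.1 in labeled KO, so that the labeled KO array after AOM was the highest of the 4. The ratio of labeled KO to WT after AOM was 87.7-fold, the 12th highest of 17131 genes. *Mylk* encodes myosin light chain kinase, and its brightest probe was at 4.96 and 5.46 with vehicle and at 0.466 and 4.57 after AOM. Here the WT array after AOM was low and the other 3 lay close together, and the ratio after AOM was 9.81-fold.

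The next members bind or nucleate actin. *Tagln*, transgelin or SM22, was at 194 in WT and 201.6 in labeled KO with vehicle, and at 11.6 and 157.6 after AOM, a ratio of 13.6-fold. *Cnn1*, calponin, which restrains the myosin ATPase, was at 109 and 116 with vehicle and at 1.28 and 89.5 after AOM, a ratio of 70.2-fold. Both genes were slightly lower on the labeled KO array after AOM than on either vehicle array, within 2-fold, an order that rests on the scaling, since their log2 ratios of AOM over vehicle in labeled KO were 0.38 and 0.45 with quantile normalization and 0.49 and 0.47 without scaling. *Smtn*, smoothelin, found in contractile smooth muscle, was at 18.1 and 17.5 with vehicle and at 2.10 and 20.8 after AOM at its brightest probe. The ratio after AOM was 9.89-fold. *Lmod1*, leiomodin, a nucleator of actin filaments, was at 0.229 and 0.217 with vehicle and at 0.167 in labeled KO after AOM, and it was not well above background in WT after AOM. Its ratio after AOM was therefore a bound, at least 13.3-fold, set against the lowest signal well above background on that array, an intensity of 16.4. That bound holds for the deposited background subtraction, and with normexp correction, which adds an offset of 50 to every signal, and quantile normalization the log2 ratio was 1.36.

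Desmin and synaptopodin 2 link filaments to dense bodies and Z-discs. *Des*, the muscle intermediate filament protein, was at 7.92 in WT and 7.17 in labeled KO with vehicle, and at 0.0632 and 6.47 after AOM. Its 10 spots on the WT array after AOM ran from an intensity of 78.6 to 89.6, and those on the labeled KO array from 7260 to 7942. The spots of an array repeat the same pool and do not give the spread between mice. The ratio of labeled KO to WT was 102-fold, the 10th highest of 17131 genes. The log2 ratio of 6.68 became 5.20 with normexp correction and quantile normalization. *Synpo2*, which binds actin and alpha-actinin, was at 7.03 and 7.15 with vehicle and at 0.155 and 10.3 after AOM at its brightest probe, a ratio of 66.4-fold. On the log2 scale the SD over the 10 genes of the ratio after AOM was 1.47, against 0.10 for the ratio with vehicle. After AOM the members thus shared the direction of the ratio and differed in how large it was.

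**Figure D2:**
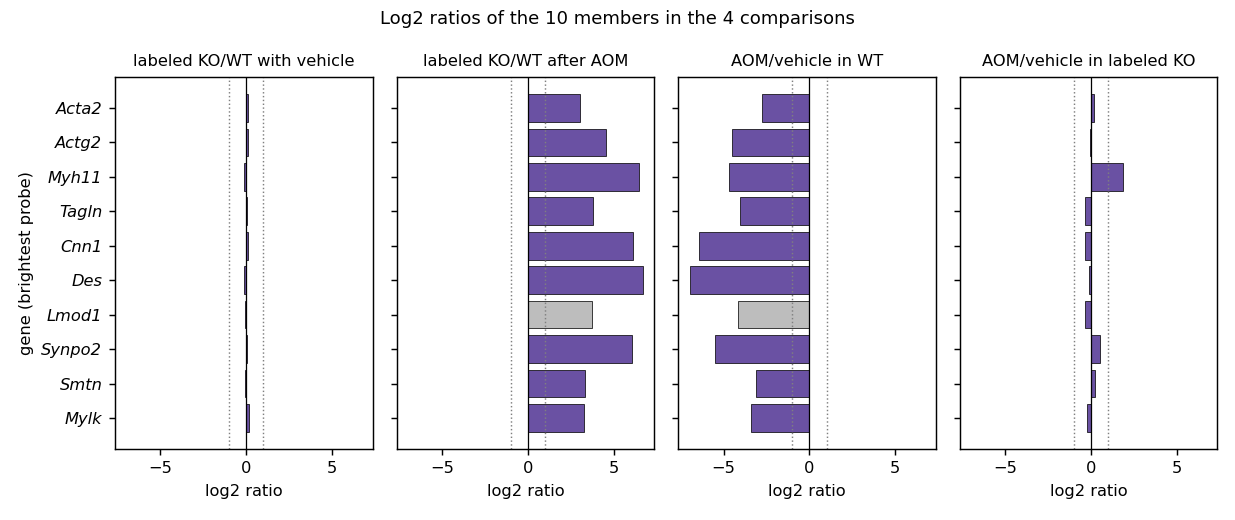
Log2 ratio of each gene (brightest probe) in the 4 comparisons, 1 bar per gene, with dotted lines at 2-fold. The gray bars of Lmod1 are bounds. All 10 bars pass 2-fold to the right for labeled KO over WT after AOM and to the left for AOM over vehicle in WT, and in the other 2 comparisons Myh11 in labeled KO is the one bar that passes it.

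The comparison of AOM with vehicle within a genotype uses the same 4 arrays paired the other way, so it is no independent support for the ratios above. In WT, all 10 genes were lower after AOM by over 2-fold, where 22.4% of 17216 genes were, and all 10 were lower by over 4-fold, where 7.23% of all genes were. The log2 ratio ran from -6.97 for *Des*, the 17th lowest of 17216 genes, to -2.75 for *Acta2*. The median of the members was -4.34 and that of all genes -0.17. In order of the fall, *Des* was 125-fold lower, *Cnn1* 85.7-fold, *Synpo2* 45.4-fold, *Myh11* 25.9-fold, *Actg2* 22.5-fold, *Lmod1* at least 18.3-fold, *Tagln* 16.8-fold, *Mylk* 10.6-fold, *Smtn* 8.62-fold and *Acta2* 6.75-fold. With a single array per group, whether neighbors in this order would keep their places in other mice was not tested.

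In labeled KO, 9 of the 10 genes stayed within 2-fold between AOM and vehicle. The one higher by over 2-fold was *Myh11*, where 9.65% of 16454 genes were higher, and 0 were lower, where 15.1% of all genes were. *Myh11* was 3.68-fold higher. The other 9 ran from -0.38 for *Lmod1* to 0.52 for *Synpo2* on the log2 scale. The median over the 10 was -0.10, and it was 0.58 under quantile normalization and 0.74 without scaling, so its sign rests on the scaling. A fall of over 2-fold in WT together with a ratio within 2-fold in labeled KO was seen in 9 of the 10 members and in 13.2% of the 16056 genes with a ratio in both genotypes. A fall of over 2-fold in WT with a rise of over 2-fold in labeled KO, the pattern of *Myh11*, was seen in 1.20% of them. The difference between the genotypes was not tested.

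**Figure D3:**
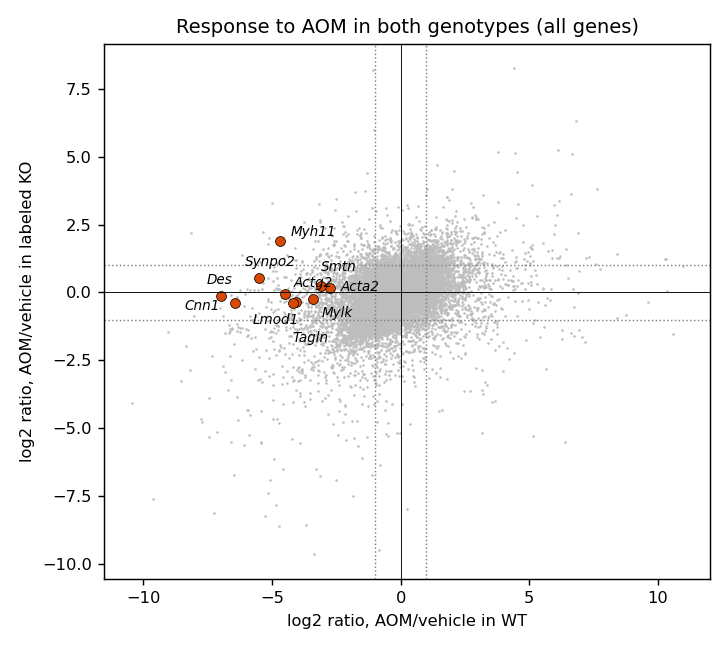
Log2 ratio of AOM over vehicle in WT (horizontal axis) against the same ratio in labeled KO (vertical axis), 1 gray point per gene and 1 orange point per smooth muscle contractile gene, with dotted lines at 2-fold. The 10 genes lie at -2.75 or below in WT, and 9 of them lie between -0.38 and 0.52 in labeled KO, with Myh11 at 1.88.

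Between labeled KO and WT after AOM, the probes of a gene agreed in direction and differed in size. The brightest *Synpo2* probe (chromosome 3 of mm9, 122779459 to 122779518) had a log2 ratio of 6.05 between labeled KO and WT after AOM, and a second probe (122782094 to 122782153) had 3.80. That second probe was at 0.362 and 0.318 with vehicle and at 0.0398 and 0.553 after AOM. The third, whose sequence is printed above, was at 0.158 and 0.156 with vehicle and at 0.295 in labeled KO after AOM, and was not well above background in WT after AOM, which gave a bound of at least 4.28 on the log2 scale. Both dimmer probes were thus lowest in WT after AOM as well.

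For *Smtn* the brightest probe (chromosome 11, 3417530 to 3417589) had a log2 ratio of 3.31 after AOM, and the probe printed above had 1.46. It was at 0.979 and 0.915 with vehicle and at 0.400 and 1.10 after AOM. *Smtn* is a near neighbor of the targeted gene. The *Smtn* and *Pla2g3* probes lay 18176 to 27647 bases apart on chromosome 11 of mm9, and RefSeq lists 2 protein-coding genes between them, *Inpp5j* and *Selenom*. With vehicle the *Smtn* probes had log2 ratios of -0.05 and -0.10 between labeled KO and WT, so neither passed 2-fold.

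The *Mylk* gene gives rise to a long kinase, a short smooth muscle kinase and the kinase-free protein telokin. Its brightest probe (chromosome 16, 35001266 to 35001325) had a log2 ratio of 3.29 after AOM. A second probe (34953958 to 34954017), closer to the 5′ end of the gene, was at 0.0856 and 0.0979 with vehicle and at 0.0771 and 0.146 after AOM in WT and labeled KO. Its log2 ratio after AOM was 0.92, and between AOM and vehicle in WT it was -0.15, so this probe passed 2-fold in neither comparison. The other 13 of the 14 probes were over 2-fold higher in labeled KO than in WT after AOM and over 2-fold lower after AOM in WT, where 14.1% of 28310 probes and 21.8% of 28443 probes were. Which transcripts each probe detects was not determined here.

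**Figure D4:**
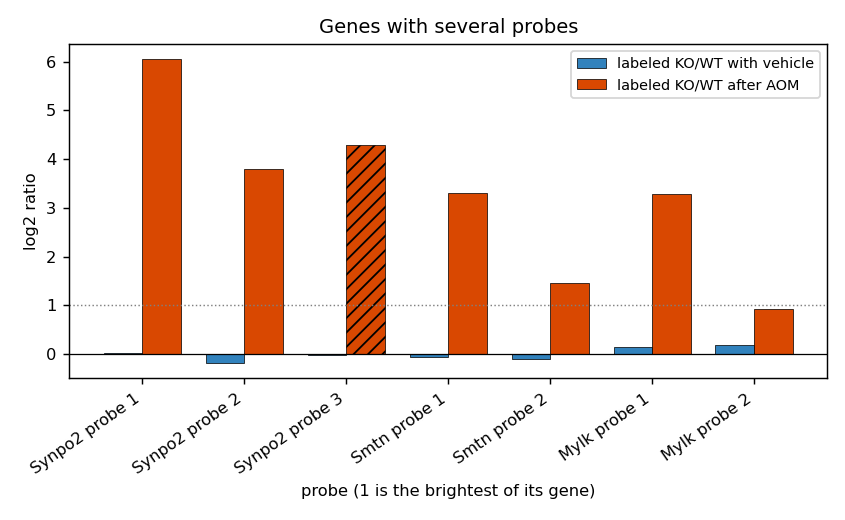
Log2 ratio of labeled KO over WT with vehicle (blue) and after AOM (orange) for the 7 probes of the genes with several probes, numbered from the brightest, with the dotted line at 2-fold. The hatched bar is a bound. All 7 orange bars point up and run from 0.92 for the second Mylk probe to 6.05 for the first Synpo2 probe.

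Between labeled KO and WT after AOM, other genes of smooth muscle moved with the members to a lesser degree. Of 64 further genes of the smooth muscle apparatus, listed by function, 38 were higher and 2 lower in labeled KO than in WT after AOM, where 15.1% of all genes were higher and 12.9% lower, with a median log2 ratio of 1.29, against 0.03 over all genes. With vehicle 0 of the 64 passed 2-fold. Between AOM and vehicle in WT, 31 of the 64 were lower and 5 higher, where 22.4% and 15.1% of all genes were. In labeled KO 14 were higher and 1 lower, where 9.65% and 15.1% of all genes were. The 38 thus did not all share the fall in WT. Among 13 thin filament genes 9 were higher and 1 was lower in labeled KO than in WT after AOM. *Synm*, a partner of desmin, had the highest log2 ratio at 5.73, and *Tpm2*, the beta tropomyosin, had 4.45. *Csrp1* and *Flna*, which bind actin structures in many cell types, had 1.98 and 1.67. The one lower gene was *Cnn3*, the acidic calponin that non-muscle cells also express, at -1.63.

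Of 11 genes that act on myosin, 6 were higher and 0 lower, where 15.1% of all genes were higher and 12.9% lower. *Myl9*, the regulatory light chain that the kinase phosphorylates, had the highest log2 ratio at 3.77, and *Rhoa*, a small GTPase of nearly all cells, had the lowest at 0.07. *Myl6*, the essential light chain, was at 0.90. Of 15 genes of adhesions and membrane, 8 were higher and 0 lower, from *Pgm5*, aciculin, at 5.17 to *Sgcb*, a sarcoglycan, at -0.28. *Cavin1*, a coat protein of caveolae, was at 1.32. In this list 5 of the 15 genes were over 2-fold higher after AOM than with vehicle in labeled KO, where 9.65% of all genes were. They are named after their values were seen. In WT *Itga8* and *Dmd* fell with AOM, as *Myh11* did, at log2 ratios of -2.58 and -2.17. There *Vcl*, *Itga1* and *Itga5* were above 0, at 1.61, 0.94 and 0.41.

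Of 14 genes of excitation and calcium handling, 12 were higher and 0 lower, where 15.1% and 12.9% of all genes were. The highest was *Ryr3*, a calcium release channel, with a bound of at least 4.43 on the log2 scale, and the lowest was *Gucy1b1*, a subunit of soluble guanylate cyclase, at 0.24. *Tacr2*, the neurokinin receptor, was at 1.19, *Irag1* at 2.30 and *Itpr1*, the inositol trisphosphate receptor, at 0.32. The 11 transcriptional regulators were the least one-sided of the smooth muscle lists, with 3 higher and 1 lower. That is near the shares of 15.1% and 12.9% over all genes, and the median log2 ratio of the regulators was 0.39. *Myocd*, myocardin, had the highest log2 ratio at 3.12. It was at 0.388 and 0.478 with vehicle and at 0.0400 in WT and 0.347 in labeled KO after AOM. *Fhl2* had the lowest at -1.41, *Foxf1* was at -0.48 and *Mrtfb* at 0.25. *Srf* itself, named after its values were seen, was at 0.87, within 2-fold.

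**Figure D5:**
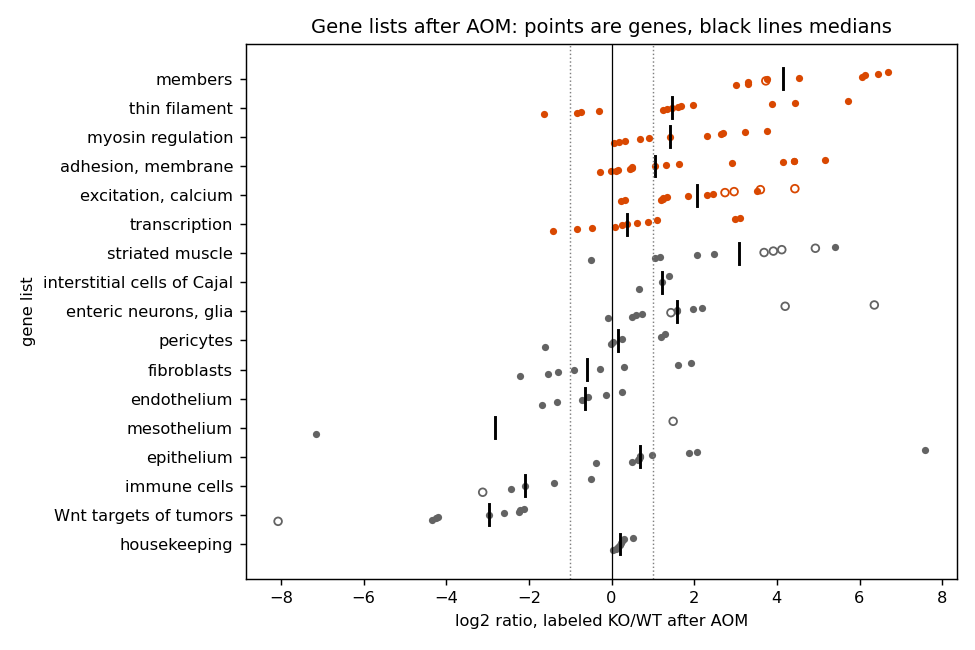
Log2 ratio of labeled KO over WT after AOM for each gene (points) of the members, the other smooth muscle lists (orange) and lists of other cell types and states (gray), with medians as black lines, bounds as open points and dotted lines at 2-fold. The members have a median of 4.15, the Wnt targets of tumors one of -2.96, and the housekeeping genes lie between 0.04 and 0.53.

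Between labeled KO and WT after AOM, other cell types also moved with the members, and their part in the result was not tested. Housekeeping genes moved far less than the members. Between labeled KO and WT after AOM 0 of 8, *Actb*, *Ppia* and *Rplp0* among them, passed 2-fold. All 8 were above 0, with a median log2 ratio of 0.21. Between AOM and vehicle in WT 1 of the 8, *Rplp0* at -1.13, was over 2-fold lower, where 22.4% of all genes were. Of 11 markers of enteric neurons and glia, which lie between the muscle layers, 7 were higher and 0 lower in labeled KO than in WT after AOM. Over all genes 15.1% were higher and 12.9% lower. The median log2 ratio of these markers was 1.59. Their summed signal was 4.69 and 4.76 with vehicle and 0.828 and 2.95 after AOM in WT and labeled KO, and 3 of the 11 were not well above background in WT after AOM. *S100b*, a glial marker, had a log2 ratio of 1.59, *Elavl4*, a neuronal one, had -0.09, and *Vip*, a neuropeptide, had at least 6.36. Of 3 markers of interstitial cells of Cajal, the pacemakers of the muscle wall, 2 were higher, *Ano1* at 1.22 and *Etv1* at 1.40, and *Kit* was at 0.67. Between AOM and vehicle 2 of the 3 were lower in WT, where 22.4% of all genes were. *Ano1* was at 0.40 in WT and 1.78 in labeled KO. Of 12 striated muscle genes 10 had a ratio of labeled KO to WT after AOM, and 9 were higher and 0 lower. *Myh1* and *Myh4* were not well above background on any array of the comparison. Between AOM and vehicle in labeled KO, 6 of 10 were higher and 1 lower, where 9.65% and 15.1% of all genes were. In WT 7 of 9 were lower and 1 higher, where 22.4% and 15.1% of all genes were. The summed signal of the striated muscle genes stayed between 2.20 and 6.29. The brightest, *Acta1*, *Tnni2* and *Tnnc2*, had log2 ratios of 2.07, -0.50 and 5.41 between labeled KO and WT after AOM.

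Markers of the remaining cell types were mixed or went the other way. Between labeled KO and WT after AOM 15.1% of all genes were higher and 12.9% lower. Of 6 pericyte markers 2 were higher and 1 lower, with *Rgs5*, *Pdgfrb* and *Abcc9* at log2 ratios of -0.0042, -1.61 and 1.28. Of 8 fibroblast markers 2 were higher and 3 lower, with *Dcn*, *Col1a2* and *Col3a1* at 0.30, -1.31 and -0.90. Among 6 endothelial markers 0 were higher and 2 lower, and *Kdr*, *Vwf* and *Cdh5* were at -0.14, -0.58 and -1.69. The 4 mesothelial markers, of the outer lining of the colon, gave 2 ratios, -7.14 for *Msln* and at least 1.49 for *Wt1*, and *Upk3b* and *Lrrn4* were not well above background after AOM in either genotype. Between AOM and vehicle in WT, 3 of the 4 were lower, where 22.4% of all genes were, and *Msln* was higher at 3.16. In labeled KO 2 of the 3 with a ratio were lower and 0 higher, where 15.1% and 9.65% of all genes were. Of 5 immune markers 0 were higher and 4 lower, against 12.9% lower over all genes, with *Cd68*, *Cd3e* and *Ptprc* at -1.40, -0.49 and -2.10.

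The epithelial and tumor markers give the state of the tissue beside these values. Of 10 epithelial markers 3 were higher and 0 lower in labeled KO than in WT after AOM, where 15.1% and 12.9% of all genes were. The 3 higher genes, named after their values were seen, were *Slc26a3*, the chloride exchanger of surface colonocytes, at a log2 ratio of 7.59, above that of every member, *Car1*, a carbonic anhydrase, at 2.07, and *Krt20*, a keratin of differentiated epithelium, at 1.87. The brightest were other keratins, and *Krt8*, *Krt18* and *Krt19* had log2 ratios of 0.66, -0.39 and 0.69. The summed epithelial signal was 764.7 and 828.7 with vehicle and 396.5 in WT and 664.6 in labeled KO after AOM. All 9 Wnt targets that mark colon tumors were lower in labeled KO than in WT after AOM, where 12.9% of all genes were, with a median log2 ratio of -2.96, and *Rnf43*, *Notum* and *Ascl2* were at -2.11, -2.60 and -2.24. Their summed signal was 6.81 and 6.66 with vehicle, 53.4 in WT after AOM and 7.56 in labeled KO after AOM. The WT array after AOM was thus the one where the contractile genes were lowest and the Wnt targets highest. With 1 pool per group, tumor content, the layers dissected and genotype cannot be told apart.

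The pattern was not particular to muscle genes. Over the 4 arrays, centered on the mean of each gene, 9 members were well above background throughout, and the other 14727 genes that were so were ranked by the root mean square difference from the median profile of these 9. That difference was 0.03 for *Actg2*, the nearest member, and 1.01 for *Des*, the farthest, and 429 other genes (2.91%) lay no farther than *Des*. The nearest was *Slc2a5*, the fructose transporter, at 0.04, followed by *Tpm2* at 0.05. Then came *Nr5a2*, a nuclear receptor, at 0.10, *Akr1c14* and *Popdc2* at 0.13, *Fabp6*, an ileal bile acid binding protein, at 0.14, and *Gprasp2* at 0.15. *Ccl28*, a chemokine of mucosal epithelium, was at 0.17, and *Wscd2* and *Zcchc12* were at 0.20. Of these 10, *Tpm2* was the one on a smooth muscle list. The signal of *Slc2a5* was 0.464 and 0.488 with vehicle and 0.0221 and 0.510 after AOM in WT and labeled KO.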

How the data were processed

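RNA pooled within each of 4 groups was labeled (27.7 ng per pool) and hybridized to 4 Whole Mouse Genome arrays on 1 slide. The authors deposited spot intensity from Agilent Feature Extraction 11.5.1.1 (version per the submitters' processing notes), with background subtracted and spatial trends removed on each array and no scaling from one array to another. The deposited value table is a ratio, and on each array the quotient of intensity and table value was 1 constant, 645.7 to 1309, close to the 75th percentile; its columns have medians of 0.0997, 0.0970, 0.101 and 0.0965 in the order WT and labeled KO with vehicle, then WT and labeled KO after AOM.

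Groups came from the deposited labels. Control spots and outlier flags were left out, log2 intensities of replicate spots were averaged, and the log2 of the 75th percentile over spots of the array was subtracted. Of several probes of a gene the one with the highest mean was used. Where 1 side of a ratio was not well above background (the call of Feature Extraction), that side took the array's lowest signal among spots above background, or its own signal if higher, and the ratio is a bound written "at least". Ratios were differences of log2 values with 2-fold as the threshold and no test; the number of arrays limits the precision. The computation was tested on simulated data. Coordinates are those of the array files (mm9). RefSeq tables of GRCm38.p6 gave promoter windows and gene order, and exon positions of probes were not assigned.

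Named genes were the members with all probes, *Pla2g3*, the 10 nearest in pattern, the 3 brightest of each list and, for the smooth muscle lists, those with the highest and lowest ratio after AOM. One gene that this rule selects is not reported here. Members and lists were chosen with earlier results of these data known. Alternatives were scaling by quantiles, by the median or not at all, normexp (offset 50) with 75th percentile or quantile scaling, the mean or dimmest probe, other filters on dim probes, the value table, and thresholds of 1.5-fold and 4-fold. Python 3.11.15, numpy 2.4.6, pandas 2.3.3, R 4.3.3 and limma 3.58.1 (for normexp) were used.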

Additional observations from a re-analysis of the deposited data

Results flagged for a closer look

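*Myh11* was past 2-fold in opposite directions in the genotypes, with a log2 ratio of AOM over vehicle of -4.69 in WT and 1.88 in labeled KO. It was read by 1 probe and 1 spot per array, and the difference was not tested.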

How the results depend on the processing

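Under the alternatives, every member gene with a ratio stayed over 2-fold higher in labeled KO after AOM and over 2-fold lower after AOM in WT, except *Mylk* at its dimmest probe (log2 ratios of 0.92 and -0.15). Of 119 recomputed member ratios in each comparison, 119 kept their direction in both of these, 107 did between genotypes with vehicle and 91 between AOM and vehicle in labeled KO. The median for labeled KO over WT after AOM was 4.24 with quantile normalization, 3.99 without scaling, 4.03 with the dimmest probe, 4.43 with no filter on dim probes and 4.54 with only probes above background on all arrays. For AOM over vehicle in WT it was -3.93, -3.32, -4.13, -4.59 and -4.49 in the same order, -4.13 with the mean over probes, and -4.20 and -3.56 after normexp with the 75th percentile and with quantile normalization. For AOM over vehicle in labeled KO it was 0.58 with quantile normalization, 0.74 without scaling, 0.048 with the mean over probes, 0.054 with the dimmest probe, and 0.45 and 0.59 after normexp with the 75th percentile and with quantile normalization. In that comparison the count of higher genes was 4 without scaling, where *Acta2* (1.02), *Synpo2* (1.37) and *Smtn* (1.10) also passed, 2 after normexp with the 75th percentile, where *Synpo2* (1.05) passed, and 0 at a threshold of 4-fold. Under that normexp setting 1 gene was lower, *Lmod1* at -1.23, and the median with vehicle was -0.46 between labeled KO and WT. On the labeled KO array with vehicle, 4 spots had a local background over the spot's own signal by more than 100 units of intensity, and leaving them out of the normexp fit moved the median signal of that array from 455 to 124. With this alternative, added after seeing the data, the medians were -4.20 in WT and -0.035 in labeled KO for AOM over vehicle with the 75th percentile, and 4.22, -3.58 and 0.59 with quantile normalization for labeled KO over WT after AOM, AOM in WT and AOM in labeled KO. Without scaling the median of all genes was 0.87 in WT and 0.76 in labeled KO for AOM over vehicle. No paired analysis was possible because each group has 1 array and the labels carry no replicate numbers, and no replicate could be left out. For *Lmod1* and the dimmest *Synpo2* probe the signal over background limits the ratio to a bound.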
